A study of Arabidopsis thaliana with 12 samples.

Results

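Transcripts of 4 nuclear genes that serve the thylakoid membranes of the chloroplast were followed in the prors1 mutant of Arabidopsis thaliana and in the wild type (WT). The genes were taken by locus, as AT1G22700 (a tetratricopeptide-repeat protein of photosystem I assembly), AT3G08010 (ATAB2), AT3G15840 (PIFI) and AT1G03160 (FZL), and all 4 had exactly 1 probe whose platform annotation named that locus alone, out of 692 single-gene probes and 3439 probes in all. The loci were selected on their theme, with the prors1 and WT levels on these same arrays already known, so the genotype differences of the 4 genes are described and carry no test. The 6 prors1 samples came from the mutant, which the labels describe as lacking prolyl-tRNA synthetase, and the 6 WT samples from the wild type, both in the ecotype Columbia 0. Each sample was 1 single-channel array of total RNA with a replicate number from 1 to 6. The sources used here give neither the allele nor the tissue, age and growth of the plants. They also do not say whether samples of 1 genotype came from separate plants, so the errors cover the spread from array to array, of which an unknown share may be technical.

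Thylakoids carry the photosystems, the cytochrome b6f complex and the ATP synthase, and their complexes are built from subunits encoded in the nucleus and in the chloroplast genome. Assembly factors join those subunits, and nuclear RNA-binding proteins allow the chloroplast messages to be translated. The chloroplast NDH complex passes electrons from ferredoxin back to plastoquinone, which feeds cyclic electron flow around photosystem I and chlororespiration in the dark. PRORS1 loads proline onto transfer RNA for translation inside the organelles.

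The arrays of the 2 genotypes differed in their medians and in the number of probes at 0. Their mean intensities lay closer together, between 0.933 and 0.989 in prors1 and between 0.855 and 0.921 in WT. The median deposited intensity of an array lay between 0.250 and 0.444 in prors1 and between 0.135 and 0.169 in WT, on the authors' scale that ends at 100, and between 215 and 316 probes in prors1 and 368 and 396 in WT were deposited at 0. Levels are therefore given as deposited and also after quantile scaling, which gives every array the same distribution, on a log2 scale with a floor at -4.42. Under quantile scaling the median of all 3303 tested features differed by -0.02 between the genotypes (log2, prors1 minus WT), against 0.91 on the values as deposited. Within a genotype, samples 1-2, 3-4 and 5-6 resembled each other more than other pairs did, and results are given by these sets where they differ. RNA came from whole samples, so fewer cells of a type and less RNA per cell cannot be told apart, and none of the 16 marker genes listed for leaf, root, seed and other cell types had a single-gene probe.

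After quantile scaling AT1G22700 was higher in prors1, ATAB2 and PIFI were lower, and FZL differed in opposite directions in different sets of samples. In the limma fit across all 3303 features, which called 42.8% of them at an adjusted p of 0.05 (19.6% higher and 23.2% lower), the 4 genes gave 1 higher call, 2 lower calls and 1 gene that was not called. Because the fit's contrast was known when the genes were chosen, nothing is read from that count. The median difference of the 4 genes was -0.89, and the 4 differences ran from -1.33 to 0.95.

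AT1G22700, the photosystem I assembly gene, was brighter in every prors1 sample than in any WT sample. Its deposited intensity ran from 0.445 through a median of 0.664 to 0.719 in prors1, and from 0.0846 through a median of 0.147 to 0.230 in WT. The 2 genotypes did not overlap, with prors1 above WT, as for 36.3% of all features on the deposited scale. The prors1 mean of 0.609 ± 0.128 was 3.96 times the WT mean of 0.154 ± 0.0524 (SD, n = 6 each). Among the prors1 samples, 5 and 6 were the lowest on this scale, at 0.450 and 0.445, and these 2 arrays also had the lowest array medians of their genotype.

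The difference in AT1G22700 was smaller once the arrays were scaled. After quantile scaling its level ran from -1.31 through -1.19 to -0.80 in prors1 and from -2.82 through -2.02 to -1.53 in WT (log2, lowest, median and highest), with no overlap, as for 25.5% of all features (11.4% with prors1 above and 14.1% with prors1 below). The difference of 0.95 ± 0.20 (SE) corresponds to 1.94-fold higher in prors1. With the sets averaged its SE was 0.26, and AT1G22700 was called close to the threshold, where 22.7% of all features were called. Ranked within its own array, the probe stood at percentile 70.6 ± 4.03 in prors1 and 48.8 ± 10.8 in WT (SD, n = 6 each). Quantile scaling keeps these ranks, so they are no separate check on it. The spread of AT1G22700 was smaller in prors1 than in WT after quantile scaling, with SDs of 0.21 and 0.46, and the ratio of these SDs was below that of most features (percentile 8.97 of 3221).

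**Figure D1:**
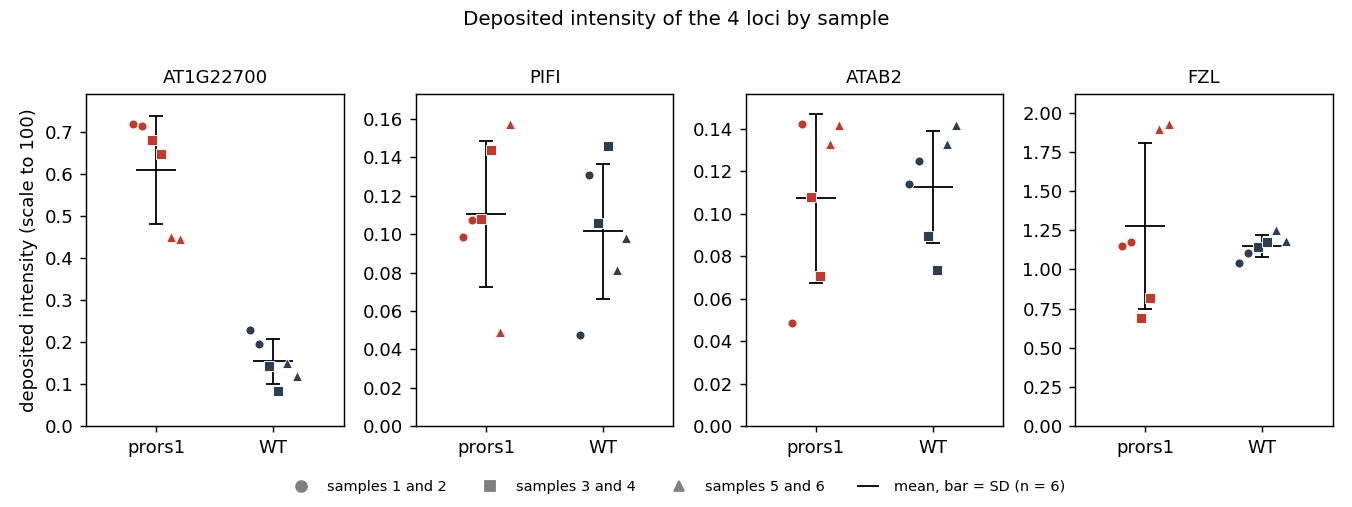
Deposited intensity (vertical axis, authors' scale to 100, each panel with its own range from 0) of the 4 loci in 6 prors1 and 6 WT samples, with symbols for the sets of samples 1-2, 3-4 and 5-6 and the mean with its SD. AT1G22700 separates the genotypes, at 0.445 or above in prors1 and 0.230 or below in WT, whereas PIFI, ATAB2 and FZL overlap.

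ATAB2, an RNA-binding protein needed for the translation of chloroplast messages for both photosystems, had nearly the same deposited intensity in the 2 genotypes. It ran from 0.0484 through a median of 0.120 to 0.142 in prors1, and from 0.0736 through a median of 0.119 to 0.142 in WT. The means were 0.107 ± 0.0397 in prors1 and 0.113 ± 0.0263 in WT (SD, n = 6 each), a ratio of 0.952, and the prors1 sample was the higher of the same-numbered pair in 3 of 6 pairs. The prors1 range took in the whole WT range.

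Against the other probes of its array, ATAB2 stood lower in prors1. Its rank within the array was percentile 19.3 ± 9.59 in prors1 and 40.5 ± 9.28 in WT (SD, n = 6 each). After quantile scaling the level was at the floor in 3 of 6 prors1 samples (1, 3 and 4) and in no WT sample, with a median of -3.95 and a highest value of -2.81 in prors1 and a range from -3.02 through -2.32 to -1.96 in WT. The genotypes still overlapped, because prors1 samples 5 and 6 lay above WT sample 4. However, within each of the 6 same-numbered pairs the prors1 value was the lower one. The difference of -1.33 ± 0.33 (SE) was 2.52-fold lower in prors1, and with 3 prors1 values at the floor its size depended on that floor, from -0.99 with a floor at percentile 10 of positive values to -1.72 with one at percentile 1. ATAB2 was no longer called with the sets averaged, where 22.7% of all features were called, or without samples 1-2, where 27.8% were.

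PIFI, a protein connected with the NDH complex whose loss changes the rise of chlorophyll fluorescence after illumination, showed the same contrast between scales. Its deposited intensity ran from 0.0491 through a median of 0.108 to 0.157 in prors1, and from 0.0474 through a median of 0.102 to 0.146 in WT. The means were 0.111 ± 0.0381 in prors1 and 0.102 ± 0.0351 in WT (SD, n = 6 each), a ratio of 1.09, with prors1 the higher in 3 of 6 same-numbered pairs. On this scale the 2 genotypes overlapped over almost their whole ranges.

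PIFI stood at percentile 18.5 ± 7.77 of its array in prors1 and 37.3 ± 8.54 in WT (SD, n = 6 each). After quantile scaling its level ran from the floor through -4.06 to -2.67 in prors1 and from -3.41 through -2.47 to -2.17 in WT, and prors1 was the lower in 6 of 6 same-numbered pairs. The difference was -1.31 ± 0.29 (SE), or 2.48-fold lower in prors1. Overlap came from single samples, since prors1 sample 6 and WT sample 1 each lay apart from the other 5 of their genotype. Without prors1 sample 6 the difference was -1.54. With the sets as a random block, a fit that called 30.2% of all features, PIFI was no longer called, and the same was found without samples 3-4, at -1.14.

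**Figure D2:**
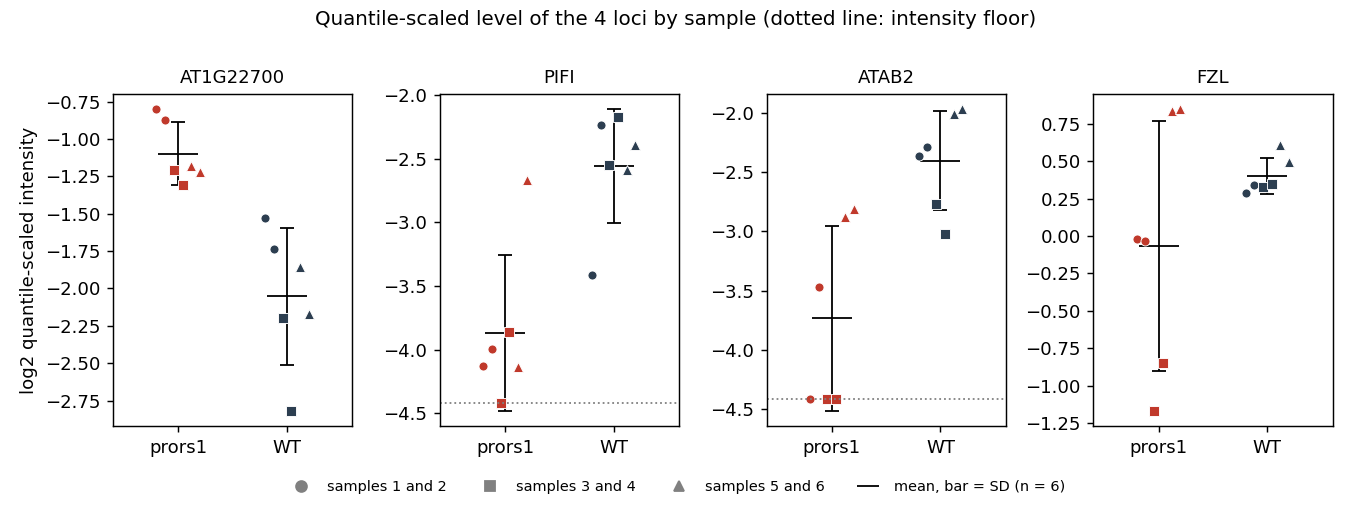
Quantile-scaled level (vertical axis, log2 intensity, each panel with its own range) of the 4 loci in the 6 prors1 and 6 WT samples, with symbols for sets of samples, the mean with its SD, and a dotted line at the floor of -4.42. AT1G22700 lies higher in prors1 without overlap, ATAB2 and PIFI lie lower with 3 and 1 prors1 values at the floor, and FZL spreads from -1.17 to 0.85 in prors1 around a narrow WT group.

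FZL, a dynamin-like GTPase that shapes the thylakoid network, was above the floor on every array, and its genotype means were close. Its deposited intensity ran from 0.691 through a median of 1.16 to 1.93 in prors1, and from 1.04 through a median of 1.16 to 1.25 in WT. The means were 1.28 ± 0.528 in prors1 and 1.15 ± 0.0712 in WT (SD, n = 6 each), a ratio of 1.11. The WT samples were tightly grouped, and the prors1 samples lay on both sides of them.

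The prors1 values of FZL followed the sets of samples. Relative to the WT samples of the same numbers, the deposited intensity was 1.08 times as high in samples 1-2, 0.648 times in samples 3-4 and 1.57 times in samples 5-6. After quantile scaling the differences of the sets were -0.34, -1.35 and 0.29 on the log2 scale, so that 4 pairs were lower and 2 higher in prors1. The range of 1.64 between sets was wide for this array, at percentile 94.9 of all features, where the median feature had 0.59. The SD among prors1 samples was 0.84, against 0.12 among WT samples, a ratio of 6.80 at percentile 99.2 of 3221 features.

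The mean difference of FZL, -0.47 ± 0.32 (SE), was not called. Without samples 5-6, where 47.9% of all features were called, it was -0.81 and called lower. Without samples 3-4, where 33.1% were called, it was -0.02. Division of each array by its median gave -1.10, also called lower, with 47.2% of all features called. What the sets stand for is not stated in the labels. Samples 3-4 of prors1 had the highest array medians of that genotype, 0.435 and 0.444, and samples 5-6 the lowest, 0.250 in both, and the part of these array medians in the FZL values was not tested.

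**Figure D3:**
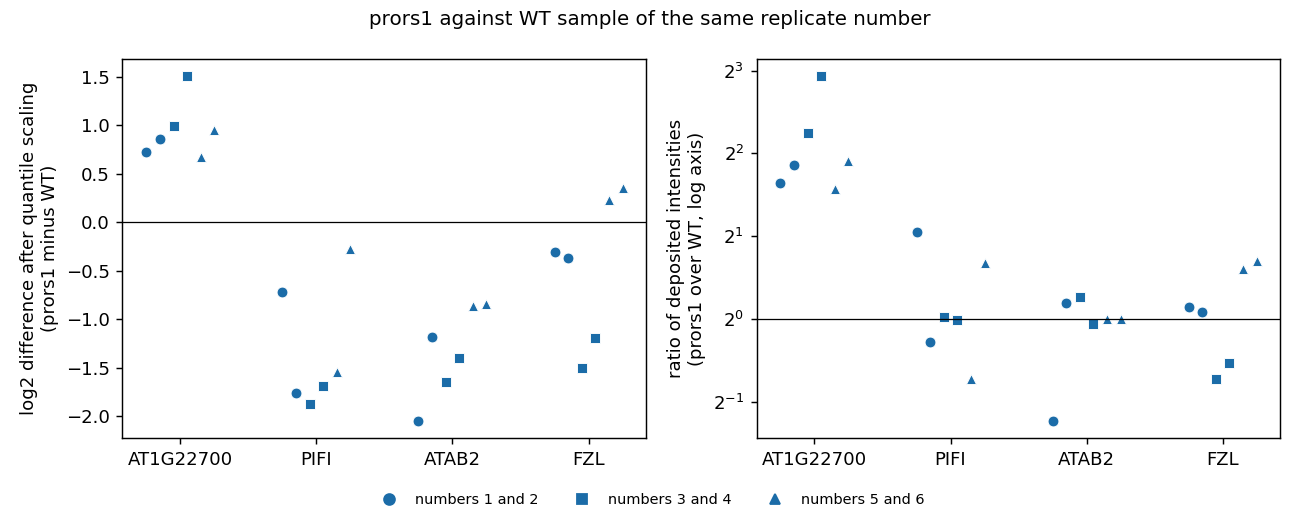
Difference between each prors1 sample and the WT sample of the same replicate number for the 4 loci, as a log2 difference after quantile scaling (left) and as a ratio of deposited intensities on a log axis (right), with symbols for sets of numbers. All 6 pairs lie above 0 for AT1G22700 and below 0 for PIFI and ATAB2 on the left, FZL ranges from -1.50 to 0.35 there, and on the right only AT1G22700 has all 6 ratios on one side of 1.

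Pairing by replicate number changed the error more than the outcome. The paired differences of AT1G22700 ran from 0.68 to 1.51 on the log2 scale after quantile scaling, those of PIFI from -1.87 to -0.28, those of ATAB2 from -2.05 to -0.84 and those of FZL from -1.50 to 0.35. With the replicate number as a block the SE of ATAB2 was 0.17, against 0.33 without it, and that of AT1G22700 was 0.13, against 0.20. The SE fell less for PIFI, to 0.23 from 0.29, and for FZL, to 0.26 from 0.32. The block raised the share of all features called to 50.4%, and none of the 4 calls changed with it. The genes were chosen with this contrast known, so a kept call adds no support. The SEs without a block treat the arrays of a genotype as independent. With the sets as a random block they were larger, at 0.25 for AT1G22700, 0.47 for PIFI, 0.39 for ATAB2 and 0.33 for FZL.

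The differences of PIFI, ATAB2 and FZL changed with the scaling. On the values as deposited the differences were 2.03 for AT1G22700, 0.12 for PIFI, -0.14 for ATAB2 and 0.04 for FZL, and only the first was called. On that scale 66.9% of all features were called, and 61.4% were called higher. Set against the median feature on that scale, AT1G22700 lay 1.12 above it, and PIFI, ATAB2 and FZL stood at -0.79, -1.05 and -0.87 relative to it. FZL was brighter than the array medians, at deposited means of 1.28 in prors1 and 1.15 in WT. Whether bright probes shifted as much as the median feature was not tested. After cyclic loess, which called 41.6% of all features, the differences were 1.04 for AT1G22700, -1.37 for PIFI, -1.69 for ATAB2 and -0.32 for FZL. Division by array medians gave 0.88 for AT1G22700, -1.02 for PIFI, -1.26 for ATAB2 and -1.10 for FZL, and there the genotypes overlapped for AT1G22700 too.

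**Figure D4:**
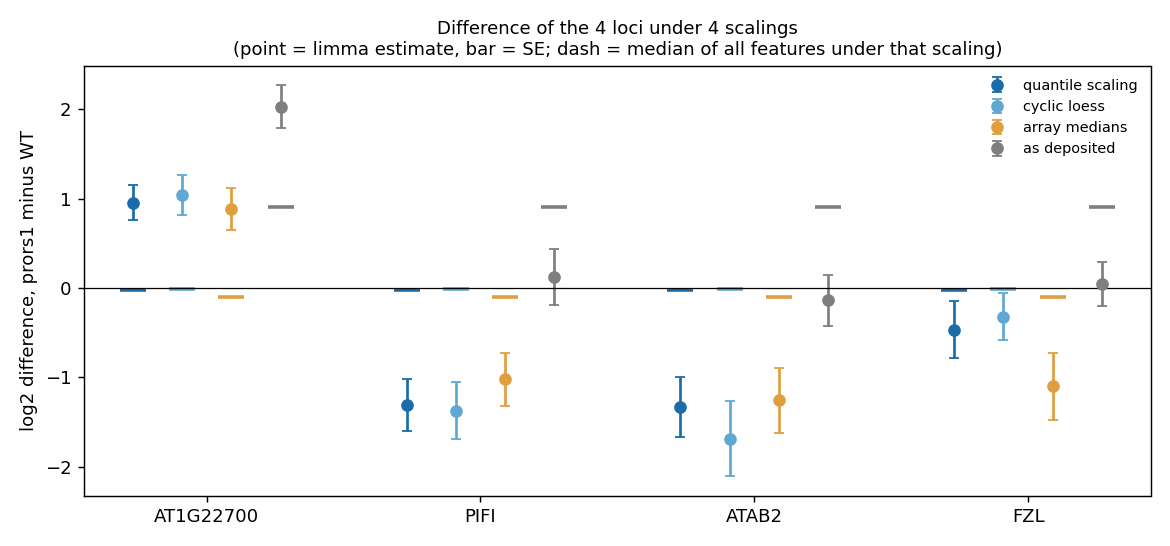
Log2 difference, prors1 minus WT (vertical axis), of the 4 loci in limma under quantile scaling, cyclic loess, division by array medians and the values as deposited, with bars for the SE and dashes for the median of all features under the same scaling. AT1G22700 lies above the median feature under all 4 and the other genes lie below it, although on the values as deposited PIFI, ATAB2 and FZL are close to 0.

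The 4 genes did not share one pattern. After each profile was centred on its own mean over the 12 samples, ATAB2 and FZL were the closest 2 of the 4, with a root-mean-square difference of 0.55 on the log2 scale, followed by PIFI and ATAB2 at 0.61. AT1G22700 and PIFI were the farthest apart at 1.33. By the same measure over 12 samples and 459 or 460 other single-gene features never at the floor, AT1G22700 was closest to AT2G36560 (0.28), AT5G17630 (0.29) and AT5G40470 (0.32), where the median feature stood at 0.69. PIFI was closest to AT3G56290 (0.32), AT5G14910 (0.39) and AT5G04600 (0.41). ATAB2 was closest to AGL54 (0.33), TPP2 (0.34) and AT3G52070 (0.35).

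FZL had the nearest neighbour of the 4, AT2G33180, at 0.14, followed by AT3G09850 and AT3G57630, both at 0.22. AT2G33180 differed between the genotypes by -0.51 in samples 1-2, by -1.25 in samples 3-4 and by 0.24 in samples 5-6, the order seen for FZL. The other 2 had their lowest difference in samples 3-4 as well, at -0.96 and -0.94, and their highest in samples 5-6, at 0.11 and 0.33. These 3 were picked for their likeness to FZL, so their values describe the pattern and add no support to it.

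Other genes of the NDH complex, of complex assembly and of thylakoid formation were looked up from lists of 94 loci. Of these, 7 had a single-gene probe and 6 could be tested, and in limma 1 rose, 2 fell and 3 did not pass the test, against 42.8% of all features called. The median difference of the 6 genes was 0.06, against -0.02 for all features. CCB3 (AT5G36120), the seventh, was at the floor in all samples, and the lists of photosystem I assembly, cyclic electron flow and thylakoid membrane formation had no tested member. The lists were written from general knowledge and are not complete. They were also chosen with earlier results of these data known, so the adjusted p values of their genes are given as a description. After the values were seen, some more tested genes with symbols of these themes were found outside the lists. That search was not complete. CRR41 (AT1G51100) at -0.14 and LPA19 (AT1G05385) at -0.57 were not called, and SECE1 (AT4G14870) at -0.69 was called lower. OTP85 (AT2G02980) at 0.90 was called higher, with 2 WT values at the floor.

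The 2 measured subunits of the NDH complex changed in opposite directions after quantile scaling. NdhS (AT4G23890), the subunit that binds ferredoxin, ran from 3.35 to 3.85 in prors1 and from 2.75 to 3.21 in WT (log2), without overlap, and rose by 0.70 ± 0.12 (SE), or 1.62-fold, at an adjusted p of 0.000464 in limma. Its rise passed in all 18 fits made without 1 sample or without 1 replicate number. With the sets averaged its SE was 0.18 and its adjusted p 0.0374 in limma. Division by array medians turned the difference of NdhS round, to a lower call at -0.75. On the values as deposited NdhS was called higher at 0.39, but the median of all features was higher there, at 0.91. NdhS was far brighter than the array medians, at deposited means of 11.3 in prors1 and 8.55 in WT. Whether bright probes shifted as much as the median feature was not tested. NdhN (AT5G58260), another subunit of the stromal side of the complex, ran from -1.01 to -0.41 in prors1 and from -0.46 to -0.05 in WT, with overlap, and fell by 0.34 (log2, SE 0.13) at an adjusted p of 0.0436 in limma.

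NdhN was lower in prors1 in 6 of 6 same-numbered pairs, but its call lay close to the threshold. It was lost in 14 of the 18 fits, after cyclic loess, with the floor at percentile 1, with the sets averaged or as a random block, and without samples 1-2 or 5-6. After division by array medians NdhN was called lower at -0.87, and NdhS was lower there too, so the 2 subunits did not go in opposite directions under that scaling. On the values as deposited the difference of NdhN was 0.27 and not called, where the median of all features was 0.91. CRR21 (AT5G55740), a pentatricopeptide-repeat protein required for the editing of a chloroplast NDH message, differed by 0.22 ± 0.17 (SE) at an adjusted p of 0.338 in limma, with prors1 higher in 6 of 6 same-numbered pairs, and CRR21 was called higher on the values as deposited, at 1.07. After quantile scaling PIFI, connected with this complex, differed by -1.31, and on the values as deposited by 0.12, which was not called.

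In the list for assembly of photosystem II and the cytochrome b6f complex, AT1G54500 was the gene that moved most. Its level ran from -0.33 to 0.17 in prors1 and from 0.50 to 0.78 in WT, without overlap, and it fell by 0.74 (log2, SE 0.11), or 1.67-fold, at an adjusted p of 0.000175 in limma. AT1G54500 was called lower under all 4 scalings and in all 18 fits that left out samples. With the sets averaged its SE was 0.17 and its adjusted p 0.0288 in limma. The size depended on the scaling, with -0.36 on the values as deposited and -1.51 after division by array medians. PSB27 (AT1G03600), a photosystem II assembly and repair protein, differed by 0.27 ± 0.13 (SE) at an adjusted p of 0.115 in limma. The difference was 0.65 in samples 3-4 and -0.19 in samples 5-6, and was called higher without samples 5-6, at 0.49. PSB27 was also called higher on the values as deposited, at 0.46, although the median of all features on that scale was higher, at 0.91. PSB27 was itself brighter than the array medians, at deposited means of 2.43 in prors1 and 1.76 in WT. It was called lower after division by array medians, at -0.69. AT1G49380 differed by -0.10 ± 0.18 (SE) at an adjusted p of 0.693 in limma, and its groups overlapped. On the values as deposited AT1G49380 was called higher, at 1.17.

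**Figure D5:**
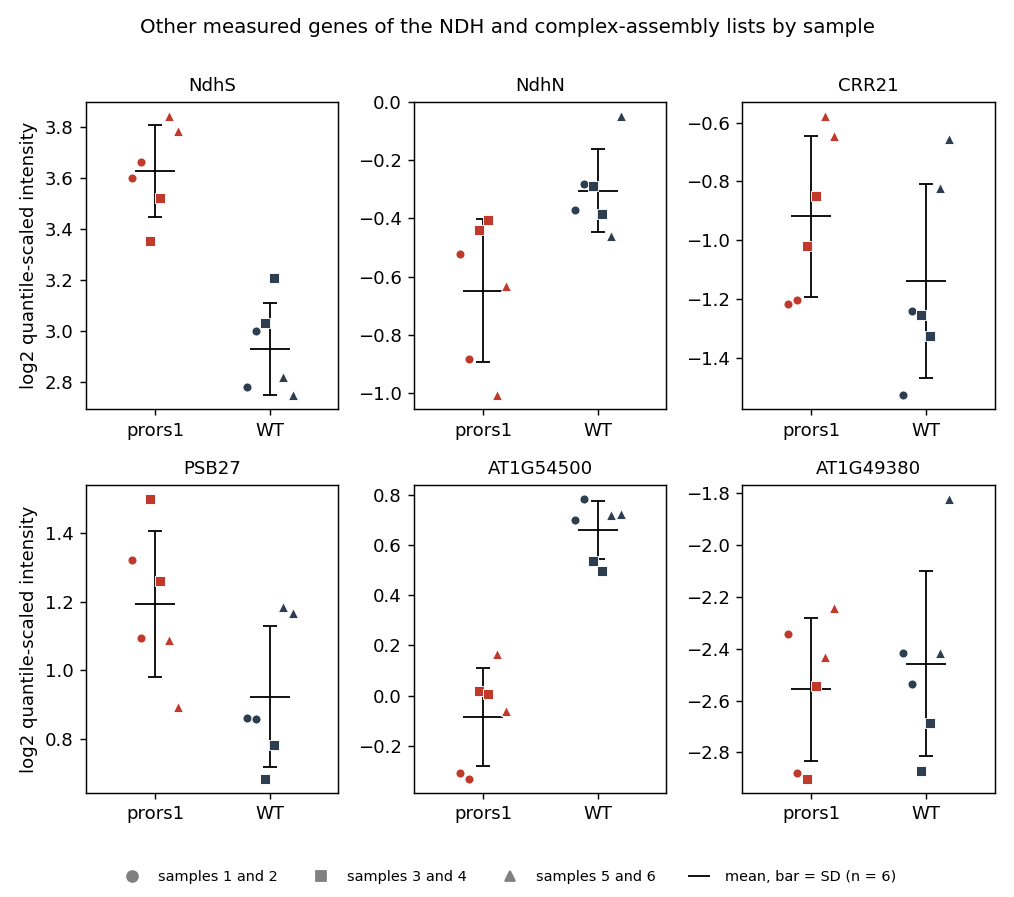
Quantile-scaled level (vertical axis, log2 intensity, each panel with its own range) of the 6 tested genes of the NDH and complex-assembly lists in 6 prors1 and 6 WT samples, with symbols for sets of samples and the mean with its SD. NdhS lies higher and AT1G54500 lower in prors1 without overlap, while NdhN, CRR21, PSB27 and AT1G49380 overlap.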

How the data were processed

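One table of single-channel array intensity values was deposited, with a column for each of 6 prors1 and 6 WT samples. The sources used here do not say how the authors made the deposited intensity values, which are linear, never negative and at most 100. Probes were named from the platform annotation, with symbols brought up to date by gene ID from the table of assembly TAIR10.1 (690 of 692 single-gene probes matched). No coordinates are given, since no build is named for the probes.

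Arrays were quantile-scaled, values at or under percentile 5 of positive values (0.0467, 13.7% of values) were raised to that floor, and log2 was taken. The 2 rows of 1 locus were averaged and 135 features at the floor everywhere left out. For the 3303 features left, lmFit and eBayes of limma 3.58.1 (R 4.3.3) gave two-sided tests of genotype with no covariate, at a Benjamini-Hochberg threshold of 0.05. The procedure was tested on simulated data. The simulated arrays were independent of each other, so that test does not cover the likeness of samples within sets or pairs. The number of arrays limits the precision.

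Named genes were the 4 loci, all tested genes of the pathway lists, and the 3 single-gene features never at the floor with the smallest root-mean-square difference from each locus. The loci and lists were chosen with earlier results of these data known. Over 2385 features never at the floor, deviations of same-numbered prors1 and WT samples had correlations of 0.346 to 0.489, so numbers pair the samples. Alternatives were other scalings, floors and filters, a replicate block, the sets 1-2, 3-4 and 5-6 averaged or as a random block (consensus correlation 0.551), and leaving out samples. Leaving out a set was chosen after seeing the data.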

Additional observations from a re-analysis of the deposited data

Results flagged for a closer look

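In 2 of 20 groups of 6 samples checked (4 loci and 6 pathway genes, in both genotypes), 1 sample lay far from the other 5, where chance gives about 1 group in 20. Both belonged to PIFI after quantile scaling. In prors1, replicate 6 was the highest at -2.67 (log2), above a second-highest value of -3.86. In WT, replicate 1 was the lowest at -3.41, below a second-lowest value of -2.59.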

How the results depend on the processing

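Of 3303 features, 1414 were called (649 higher and 765 lower in prors1), against 2212 as deposited (2030 and 182), 1555 after division by array medians (552 and 1003), 749 with the sets averaged and 909 without samples 1-2. As deposited, PIFI had a difference of 0.12, ATAB2 one of -0.14 and FZL one of 0.044, none of them called, and 5 of the 6 pathway genes were called (4 higher and 1 lower). Divided by array medians, FZL was called lower at -1.10, as it was without samples 5-6 at -0.81. PIFI lost its call with the sets as a random block, at an unaltered -1.31 with an SE of 0.47 against 0.29, and without samples 3-4, at -1.14. ATAB2 lost its call with the sets averaged, at an unaltered -1.33 with an SE of 0.44 against 0.33, and without samples 1-2, at -1.18. The cause was not tested for any of these, although leaving out or averaging samples also leaves fewer of them. In the 18 fits made without 1 sample or 1 replicate number the count of called features ran from 1181 to 1490, AT1G22700 from 0.79 to 1.05, PIFI from -1.54 to -1.22, ATAB2 from -1.50 to -1.19, FZL from -0.65 to -0.25 and the called pathway genes from 2 to 3, and no call of the 4 loci changed. With the replicate number as a block 1664 features and 3 pathway genes were called, and no call of the 4 loci changed. The loci were chosen with this contrast known, so calls kept in these fits add no support. PIFI and ATAB2 gave no value with the dimmest 25% of features left out, since both are among them.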
